A study of Homo sapiens with 8 samples.

Results

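Nascent transcription of 10 DUSP genes was examined in IMR90 ER:RAS cells: DUSP1, DUSP2, DUSP4, DUSP5, DUSP6, DUSP7, DUSP8, DUSP10, DUSP14 and DUSP16. They are phosphatases that act on, or are related to those that act on, MAP kinases. They were taken by gene symbol from a table of 27945 counted genes, without regard to their counts. All 10 passed the filter on low counts and were among the 12844 genes tested, but DUSP2 and DUSP8 passed because of their counts in a single group, shMETTL14. IMR90 cells are human lung fibroblasts, here infected with a retrovirus that encodes a fusion of the estrogen receptor with an oncogenic H-RAS (ER:RAS), which is turned on by 4-hydroxytamoxifen (4-OHT). The 4 groups of 2 libraries were control cells (genotype labeled WT, treatment labeled control) and 3 groups labeled senescent, which carried shcontrol (called shControl here), shMETTL3 or shMETTL14. For senescence induced by ER:RAS, the methods give 100 nM 4-OHT and harvest on day 6. METTL3 and METTL14 form the core of the complex that writes N6-methyladenosine on RNA. The labels give the control cells no shRNA, so senescence and carrying an shRNA cannot be told apart when shControl cells are set against control cells. The study describes its fastGRO-seq experiments as biologically independent, and the labels add a replicate number but no culture or batch, so the p-values measure the spread between these libraries. Each knockdown used a short hairpin RNA (shRNA), and the methods list 1 construct per target.

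RAS signals through RAF and MEK to the kinase ERK, which drives transcription of its own inhibitors. Dual-specificity phosphatases (DUSPs) remove phosphate from both the threonine and the tyrosine that activate a MAP kinase, and so switch it off. DUSP1, DUSP2, DUSP4 and DUSP5 are inducible nuclear enzymes, DUSP6 and DUSP7 are cytoplasmic and selective for ERK, and DUSP8, DUSP10 and DUSP16 act mainly on the stress kinases JNK and p38. DUSP14 is a small atypical member without the kinase-binding domain of the others. In oncogene-induced senescence, these enzymes are known as a brake on the RAS signal that starts the arrest.

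The assay, fastGRO-seq, lets engaged polymerases run on in purified nuclei with 4-thio-UTP, so that the RNA captured and sequenced is the RNA being made at the time of harvest. The values are reads counted over whole genes, introns included, in hg19. Each library held 14897360 to 20306299 counts, of which 86.2% to 92.5% lay in 21 ribosomal RNA rows, leaving 1513930 to 2048475 counts on all other genes and 671 to 1885 on the 10 DUSP genes. A normalized count below is a count divided by the library's size after TMM scaling, relative to the mean of the 8 libraries. Replicates differed by more than sampling noise in every group, with a chi-square per degree of freedom of 1.53 to 5.13, the most with shMETTL3. As a check of the labels, the control libraries held 80 and 78 METTL3 counts, the shControl libraries 77 and 47, the shMETTL3 libraries 16 and 19 and the shMETTL14 libraries 73 and 56. METTL14 had 60 and 55, 24 and 28, 41 and 48, and 18 and 14 counts in the same order, and its fall from shControl to shMETTL14 missed the threshold (log2 fold change -0.86, SE 0.34, adjusted p = 0.076, edgeR's quasi-likelihood test). All 10 fibroblast markers were counted in every group. Their summed normalized counts were 22500 and 24050 in the control libraries, 10900 and 12760 in the shControl libraries, 10940 and 13190 in the shMETTL3 libraries and 7622 and 8662 in the shMETTL14 libraries, from low to high. The 4 leukocyte markers summed to 15.1 and 17.4 in the control libraries, 53.4 and 74.5 in the shControl libraries, 25.6 and 47.2 in the shMETTL3 libraries and 47.4 and 51.0 in the shMETTL14 libraries. Nearly all of this was CD68, with CD3E at 0 in every library and PTPRC and CD14 at 4 counts or fewer. The 5 epithelial markers summed to 47.8 and 50.5, 28.9 and 54.4, 21.8 and 23.6, and 61.1 and 77.0 in the same order of groups, nearly all of it KRT8 and KRT18, with EPCAM and CDH1 at 0 to 2 counts. KRT19 had 4 and 5 raw counts in the control libraries, 0 in all shControl and shMETTL3 libraries and 7 and 2 in the shMETTL14 libraries. The endothelial markers summed to at most 8.86. The part of these markers' changes in the DUSP values was not tested.

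The counted spans of the DUSP genes ran from 2272 to 89233 bases. None overlapped any other counted gene (0 overlaps). Whether the counts separate strands, as the file's header may mean by naming one, could not be settled. Pairs were taken in which a gene of 100 or more counts, summed over the 8 libraries, is nested in another counted gene. In 312 of 313 opposite-strand pairs the host's count was at least as high in every library, as in 536 of 537 same-strand pairs. In the GENCODE annotation of the same build, an unnamed lncRNA lies opposite DUSP1 over 100% of its span, another opposite DUSP6 over 36.6%, and others opposite DUSP8 and DUSP16 over 1.73% to 6.98%. Reads from these transcripts may therefore be among the counts of the DUSP genes, which was not tested.

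In senescent shControl cells, DUSP1, DUSP4, DUSP5 and DUSP6 were higher than in control cells and DUSP10 was lower. The rises ran from 2.64-fold for DUSP1 to 9.9-fold for DUSP6 among the genes with more than a few control counts, and DUSP4 went from 1 or 2 counts to 40 or more. Thus 4 of 10 were called higher, where 13.3% of all genes tested were, and 1 was called lower, where 13.3% were. DUSP4 passed the low-count filter through the senescent groups alone, and of the 7 genes with at least 10 counts in every group 3 were higher and 1 lower. The median log2 fold change was 0.94 over the 10 genes (0.49 without DUSP2, which was at 3 counts or fewer in both groups) and -0.03 over all genes tested. CD68, a lysosomal protein used as a macrophage marker, also rose, from 17 and 16 raw counts to 60 and 45 (log2 fold change 2.05, SE 0.33, adjusted p = 2.55e-05). Of the 10 fibroblast markers 8 were lower in senescence, with a median log2 fold change of -1.15, and VIM was higher (0.44, adjusted p = 0.0131). These are bulk samples, so a change in the share of cells that transcribe a gene and a change in transcription per cell cannot be told apart. A gene is called at an adjusted p below 0.05 from edgeR's quasi-likelihood test, fitted to all 8 libraries and adjusted over all 12844 genes, and this is the source of every fold change, SE and adjusted p below.

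METTL3 knockdown lowered DUSP6 and raised DUSP10. That is 1 of 10 higher, against 12.2% of all genes, and 1 lower, against 11.2%, so these shares were near the background. METTL14 knockdown raised DUSP1, DUSP2, DUSP5, DUSP8 and DUSP14 and lowered DUSP6. DUSP2 and DUSP8 passed the low-count filter only through the shMETTL14 libraries, where they are high, so they do not count as support. Of the other 8 genes 3 were higher, where 9.15% of all genes were, and 1 was lower, where 12% were. Both knockdowns are set against the same shControl libraries, so these comparisons are not independent. These 8 genes had a median log2 fold change of -0.03 with shMETTL3 and 0.14 with shMETTL14, each against shControl, where all genes tested had -0.03 and -0.00. Of the 10 fibroblast markers 2 were lower and 1 higher after METTL3 knockdown (median -0.03), and 8 were lower and 0 higher after METTL14 knockdown (median -1.13; 0 higher also in DESeq2 and at an unadjusted p under 0.05). CD68 was lower after METTL3 knockdown (log2 fold change -0.84, adjusted p = 0.040), which DESeq2 did not call. After METTL14 knockdown CD68 was not called (-0.37, adjusted p = 0.39).

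**Figure D1:**
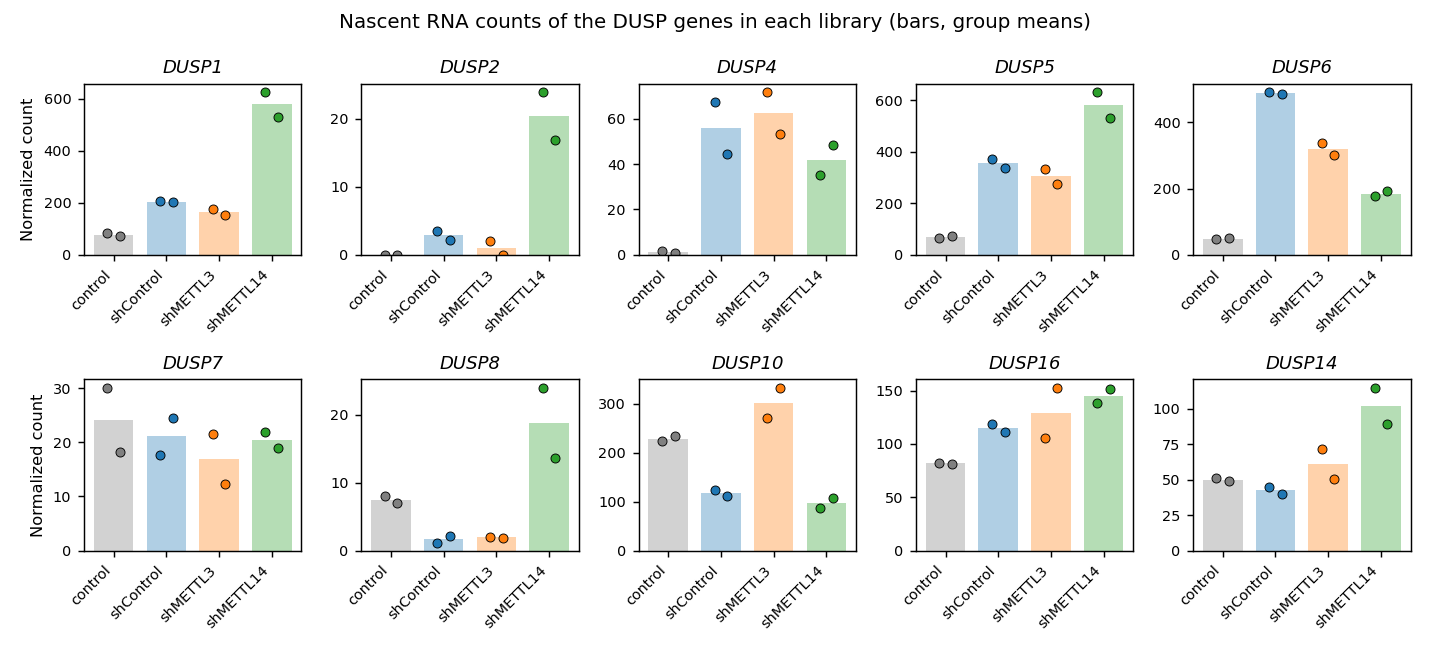
Normalized nascent RNA counts (y axis, from 0, a separate scale for each gene) of the 10 DUSP genes in control, senescent shControl, shMETTL3 and shMETTL14 cells. Points are single libraries and bars are means of 2. DUSP6 was highest with shControl, DUSP10 with shMETTL3, and DUSP1, DUSP2, DUSP5, DUSP8 and DUSP14 with shMETTL14.

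DUSP1 encodes the founding MAP kinase phosphatase, an immediate-early gene product that acts on p38, JNK and ERK (chr5:172195093-172198203 in hg19, minus strand, 4 exons). The control libraries gave 83.2 and 72.3 normalized counts, the shControl libraries 206 and 205, the shMETTL3 libraries 177 and 154 and the shMETTL14 libraries 628 and 531. The shMETTL14 libraries stood above all others, the control libraries below all others, and the shMETTL3 libraries just under shControl without overlap. The log2 fold change was 1.40 in senescence (SE 0.17, adjusted p = 2.4e-07) and 1.50 after METTL14 knockdown (SE 0.14, adjusted p = 1.2e-08). After METTL3 knockdown it was -0.31 (SE 0.15, adjusted p = 0.15), which was not called. DUSP1 was called higher in 5 of the 6 comparisons and in each of these 5 under every alternative tried.

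DUSP2 encodes a nuclear phosphatase best known from activated immune cells (chr2:96808908-96811179, minus strand). The control libraries held 0 and 0 raw counts, the shControl libraries 3 and 2, the shMETTL3 libraries 2 and 0 and the shMETTL14 libraries 24 and 16. Only the shMETTL14 libraries were above the floor of 3 counts per library, and a value fitted between 2 groups that are both at or under it is no estimate of a fold. The shMETTL14 level was 7.16 times that with shControl (95% exact counting interval 2.82 to 23.2, which covers counting error only), an edgeR log2 fold change of 2.78 (SE 0.70, adjusted p = 0.005), which is tied to the filter it passed through shMETTL14. This call was lost without either shControl library (adjusted p = 0.065 without replicate 1, 0.12 without replicate 2) and without shMETTL14 replicate 1 (adjusted p = 0.16). Against control cells the shMETTL14 level was at least 7.75-fold higher, taking the floor as 3 counts per library. In senescence DUSP2 was not called (adjusted p = 0.058), but passed without shMETTL3 replicate 1 (adjusted p = 0.041) or replicate 2 (adjusted p = 0.039).

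DUSP4 encodes a nuclear phosphatase that is a textbook target of sustained ERK signaling (chr8:29190579-29208267, minus strand). Raw counts for DUSP4 were 2 and 1 in the control libraries, 57 and 40 in the shControl libraries, 70 and 56 in the shMETTL3 libraries and 35 and 46 in the shMETTL14 libraries. All senescent libraries were far above the control libraries, while the shControl range overlapped that of each knockdown. The ratio of shControl to control was 42.2 (95% exact counting interval 14 to 208), and the edgeR log2 fold change was 5.28 (SE 0.52, adjusted p = 9.4e-09). Neither knockdown was called against shControl, with log2 fold changes of 0.16 (SE 0.27, adjusted p = 0.72) for METTL3 and -0.42 (SE 0.29, adjusted p = 0.33) for METTL14. DUSP4 was called higher after METTL3 knockdown with library size alone (0.77, adjusted p = 0.0184). Under that scaling the median of all genes was 0.58, and 41.1% were called higher.

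DUSP5 encodes a nuclear phosphatase that binds and retains ERK (chr10:112257625-112271302, plus strand). Normalized counts for DUSP5 were 65.5 and 73.1 in the control libraries, 371 and 339 in the shControl libraries, 336 and 276 in the shMETTL3 libraries and 634 and 533 in the shMETTL14 libraries. As for DUSP1, the shMETTL14 libraries were the highest and the control libraries the lowest. The shMETTL3 and shControl libraries also did not overlap, but their difference was not called (log2 fold change -0.22, SE 0.15, adjusted p = 0.3). The log2 fold change was 2.35 in senescence (SE 0.17, adjusted p = 1.9e-11) and 0.72 after METTL14 knockdown (SE 0.14, adjusted p = 0.00048).

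DUSP6 encodes the cytoplasmic phosphatase most used as a readout of ERK activity (chr12:89741602-89746636, minus strand, 3 exons). The control libraries gave 48.7 and 49.6 normalized counts, the shControl libraries 492 and 484, the shMETTL3 libraries 339 and 302 and the shMETTL14 libraries 177 and 193. The 4 groups did not overlap, in the order control, shMETTL14, shMETTL3 and shControl. The log2 fold change was 3.31 in senescence (SE 0.16, adjusted p = 4e-15), -0.61 after METTL3 knockdown (SE 0.13, adjusted p = 0.0011) and -1.40 after METTL14 knockdown (SE 0.14, adjusted p = 2.2e-08). Both knockdowns stayed above control cells, by 2.70 (SE 0.16, adjusted p = 3.8e-13) and 1.91 (SE 0.17, adjusted p = 9e-10) on the log2 scale. DUSP6 was the only one of the 10 called in all 6 comparisons. Its fall after METTL3 knockdown was lost when libraries were scaled by their total alone, without TMM (log2 fold change 0.0041, adjusted p = 0.99), a scaling that put the median of all genes at -0.53 in senescence, at 0.58 for shMETTL3 and at 0.35 for shMETTL14 against shControl.

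DUSP7, the close relative of DUSP6, had low counts in every library (chr3:52082937-52090461, minus strand). Raw counts were 34 and 21 in the control libraries, 15 and 22 in the shControl libraries, 21 and 13 in the shMETTL3 libraries and 22 and 18 in the shMETTL14 libraries. The ranges of the groups overlapped, and no comparison called it. Its log2 fold change in senescence was -0.19 with an SE of 0.39 (adjusted p = 0.77), so changes of the size of this SE were not detectable at this depth.

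**Figure D2:**
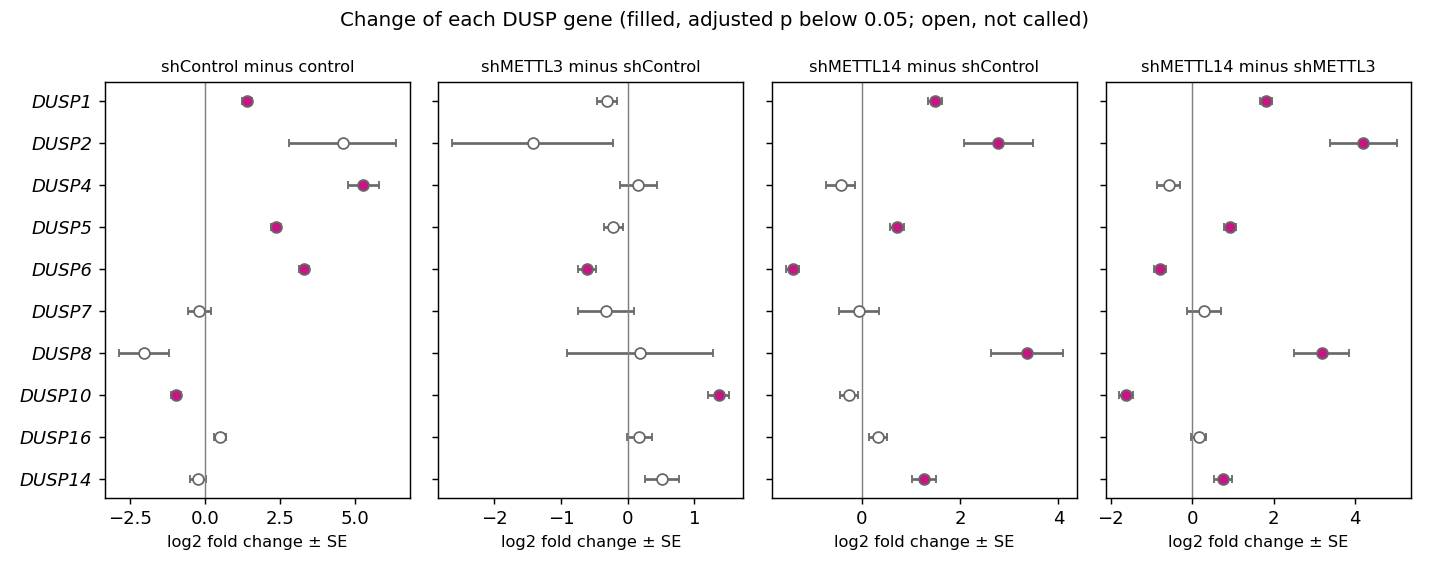
Log2 fold change (x axis, a separate scale for each comparison) with its SE for each DUSP gene (y axis) in senescent shControl minus control cells, each knockdown minus shControl, and shMETTL14 minus shMETTL3. Filled points passed an adjusted p of 0.05 in edgeR, and DUSP6 was the single gene filled in all 4 panels.

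Among the phosphatases of JNK and p38, DUSP10 followed an order of its own. DUSP10 (chr1:221874762-221915518, minus strand) gave 223 and 233 normalized counts in the control libraries, 124 and 111 in the shControl libraries, 272 and 333 in the shMETTL3 libraries and 88.0 and 108 in the shMETTL14 libraries. Control and shMETTL3 libraries were high and shControl and shMETTL14 libraries low, with no overlap between the high and the low groups. The log2 fold change was -0.96 in senescence (SE 0.16, adjusted p = 5.8e-05), 1.36 after METTL3 knockdown (SE 0.16, adjusted p = 6.1e-07) and -0.26 after METTL14 knockdown (SE 0.18, adjusted p = 0.34). Against control cells, shMETTL3 was higher by 0.41 (SE 0.15, adjusted p = 0.028), a call that was lost under 6 of 15 alternatives, among them those without control replicate 1 (adjusted p = 0.17), control replicate 2 (0.099) or shMETTL3 replicate 2 (0.24), and shMETTL14 was lower by -1.22 (SE 0.17, adjusted p = 1.2e-06).

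DUSP8 (chr11:1575281-1593150, minus strand) was close to its floor in 2 of the groups. The control libraries held 9 and 8 raw counts, the shControl libraries 1 and 2, the shMETTL3 libraries 2 and 2 and the shMETTL14 libraries 24 and 13. The shMETTL14 libraries were above the others and the control libraries next. The ratio of shMETTL14 to shControl was 11 (95% exact counting interval 3.49 to 55.9). The edgeR log2 fold change was 3.37 (SE 0.73, adjusted p = 0.0012), a call tied to the low-count filter, which DUSP8 passed only through shMETTL14. Without shMETTL14 replicate 1 that call was lost (adjusted p = 0.085). The ratio of control to shControl was 4.34 (interval 1.26 to 23.1), and the log2 fold change of -2.04 in senescence missed the threshold (SE 0.84, adjusted p = 0.073). It passed with library size alone (log2 fold change -2.51, adjusted p = 0.015), where the median of all genes was -0.53 and 39% were lower.

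DUSP16, which acts on JNK in the cytoplasm, was called only in comparisons with control cells (chr12:12626216-12715448, minus strand, 7 exons). Normalized counts for DUSP16 were 82.4 and 81.0 in the control libraries, 118 and 111 in the shControl libraries, 106 and 153 in the shMETTL3 libraries and 138 and 152 in the shMETTL14 libraries. All senescent libraries were above the control libraries, and the shMETTL3 libraries spread across the shControl range. It was not called in senescence (log2 fold change 0.49, SE 0.20, adjusted p = 0.066) or after either knockdown. With library size alone 41.1% and 24.6% of all genes were higher after METTL3 and METTL14 knockdown, with medians of 0.58 and 0.35. Under that scaling DUSP16 was called higher after METTL3 knockdown (0.80, adjusted p = 0.00215) and METTL14 knockdown (0.69, adjusted p = 0.0139). In senescence it passed without shMETTL3 replicate 1 or 2 (adjusted p = 0.02 in both) and in a fit of the compared groups alone (adjusted p = 0.012). Against control cells it was higher with shMETTL3 (0.67, SE 0.19, adjusted p = 0.0062), a call lost without shMETTL3 replicate 2 (adjusted p = 0.18), and with shMETTL14 (0.82, SE 0.19, adjusted p = 0.00089).

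The atypical DUSP14, known as a negative regulator in T cell signaling (chr17:35849951-35873588, plus strand), was not called in senescence. The control libraries gave 51.4 and 48.8 normalized counts, the shControl libraries 44.9 and 40.1, the shMETTL3 libraries 71.8 and 50.3 and the shMETTL14 libraries 115 and 89.5. The shMETTL14 libraries stood above all others. The log2 fold change was -0.24 in senescence (SE 0.26, adjusted p = 0.55), 0.52 after METTL3 knockdown (SE 0.25, adjusted p = 0.15) and 1.27 after METTL14 knockdown (SE 0.24, adjusted p = 0.00029). DUSP14 was called, with library size alone, lower in senescence (-0.73, adjusted p = 0.0263) and higher after METTL3 knockdown (1.13, adjusted p = 0.000475). Under that scaling the medians of all genes were -0.53 and 0.58, with 39% lower in senescence and 41.1% higher after METTL3 knockdown.

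Set against control cells, senescent cells with shMETTL3 had 6 of the 10 DUSP genes called higher, where 20.1% of all genes were, and 0 called lower, where 20.1% were. DESeq2 also called 0 lower, and in edgeR 1 gene, DUSP8, was lower at an unadjusted p under 0.05 (log2 fold change -1.86, adjusted p = 0.059). With shMETTL14, 6 of the 8 genes other than DUSP2 and DUSP8 were called higher, where 19.7% of all genes were, and DUSP10 was the 1 called lower, where 20.5% were. Without DUSP4 as well, the genes higher were 5 of 7 with either hairpin. Of the 10 fibroblast markers 7 were lower and 0 higher with shMETTL3 (median -1.30), and 9 lower and 1 higher with shMETTL14 (median -2.06). CD68 was higher with shMETTL3 (1.21, adjusted p = 0.0078) and with shMETTL14 (1.68, adjusted p = 0.00025). These comparisons share the control libraries with the comparison of shControl. DUSP8 passed the low-count filter only through shMETTL14, so its rise there is a description. The rise of DUSP8 over control cells with shMETTL14 (log2 fold change 1.33, SE 0.52, adjusted p = 0.042) was lost under 10 of 14 alternatives, with adjusted p from 0.016 to 0.48, and without any single library of the control, shControl or shMETTL14 groups.

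The knockdowns were then compared with each other. With shMETTL14, DUSP1, DUSP5 and DUSP14 were higher than with shMETTL3, 3 of the 8 genes that did not pass the filter through shMETTL14 alone, where 16.5% of all genes were, and DUSP6 and DUSP10 were lower, 2 of 8 where 18.7% were, so that 5 of 8 differed where 35.2% of all genes did. The call of DUSP14 was lost under 4 alternatives, those without shMETTL14 replicate 1 (adjusted p = 0.201) or shMETTL3 replicate 2 (0.0898), with DESeq2 (0.0805) and with library size alone (0.102). DUSP2 and DUSP8 were also higher. KRT8 and KRT18, named after their values were seen, were higher in the same comparison, from 9 and 10 raw counts to 25 and 23 for KRT8 (log2 fold change 1.38, adjusted p = 0.0144) and from 12 and 13 to 43 and 32 for KRT18 (1.63, adjusted p = 0.00136). Of the 10 fibroblast markers 6 were lower and 1 higher with shMETTL14 than with shMETTL3, with a median log2 fold change of -0.94. DUSP1 differed by 1.81 on the log2 scale (SE 0.14, adjusted p = 8.4e-10), which is 3.5-fold, and DUSP10 by -1.63 (SE 0.16, adjusted p = 2.6e-08). DUSP6 was lower with shMETTL14 by a log2 fold change of -0.79 (SE 0.14, adjusted p = 7.2e-05). DUSP4 was not called (log2 fold change -0.58, SE 0.28, adjusted p = 0.11), and was at -0.77 without shMETTL3 replicate 2. With library size alone it passed (-0.84, adjusted p = 0.014), where the median of all genes was -0.25 and 27.1% were lower.

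Since these genes differ in length by more than an order of magnitude, their levels were compared per kilobase of counted gene. In control cells DUSP1 was the highest, with a mean of 25.0 normalized counts per kilobase, followed by DUSP6 at 9.77, DUSP10 at 5.60 and DUSP5 at 5.07, and no neighbors in the order of the 10 overlapped. With shControl, DUSP6 came first at 96.9 per kilobase, ahead of DUSP1 at 66.0 and DUSP5 at 26.0. DUSP4, DUSP10 and DUSP7 followed at 3.16, 2.89 and 2.81, and neighbors among them overlapped, as did DUSP16 and DUSP2. With shMETTL3 the order began in the same way, with DUSP6 at 63.6, DUSP1 at 53.3 and DUSP5 at 22.4 per kilobase. Neighbors from DUSP4 through DUSP14 and DUSP7 to DUSP16 overlapped, as did DUSP2 and DUSP8. With shMETTL14, DUSP1 was first at 186 per kilobase, DUSP5 next at 42.6 and DUSP6 behind it at 36.7, with no overlap among the 3. Further down, DUSP7, DUSP10 and DUSP4 overlapped with their neighbors in this order. DUSP8 was last in every group but control cells, at 0.10 per kilobase with shControl, 0.11 with shMETTL3 and 1.05 with shMETTL14.

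Promoter sequence was available for 8 of the 10 genes, all except DUSP4 and DUSP5, from RefSeq on GRCh38.p14. The 250 bases before the gene start are shown for the genes raised by METTL14 knockdown, 5′ to 3′ on the gene's strand. Of these genes, DUSP2 and DUSP8 passed the low-count filter only through shMETTL14. Capitals mark a cAMP response element (CRE, TGACGTCA) or an E-box (CACGTG), each of which reads the same on both strands. The windows lie at chr5:172771196-172771445 (minus strand) for DUSP1, chr2:96145441-96145690 (minus strand) for DUSP2, chr11:1572272-1572521 (minus strand) for DUSP8 and chr17:37489641-37489890 (plus strand) for DUSP14.
DUSP1: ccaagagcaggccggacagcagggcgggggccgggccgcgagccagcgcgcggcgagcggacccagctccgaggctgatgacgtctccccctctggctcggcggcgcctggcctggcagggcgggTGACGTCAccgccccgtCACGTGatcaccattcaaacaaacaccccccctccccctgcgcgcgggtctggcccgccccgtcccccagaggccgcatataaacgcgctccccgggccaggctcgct
DUSP2: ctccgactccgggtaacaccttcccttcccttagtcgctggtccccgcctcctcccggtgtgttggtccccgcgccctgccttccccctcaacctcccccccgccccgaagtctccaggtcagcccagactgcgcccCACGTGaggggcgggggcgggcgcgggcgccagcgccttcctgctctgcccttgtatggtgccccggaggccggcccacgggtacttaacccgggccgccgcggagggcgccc
DUSP8: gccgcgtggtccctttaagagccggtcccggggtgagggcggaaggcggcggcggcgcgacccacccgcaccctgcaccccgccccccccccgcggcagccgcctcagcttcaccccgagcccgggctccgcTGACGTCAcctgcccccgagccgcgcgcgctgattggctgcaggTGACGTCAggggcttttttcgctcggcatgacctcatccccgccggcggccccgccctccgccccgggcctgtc
DUSP14: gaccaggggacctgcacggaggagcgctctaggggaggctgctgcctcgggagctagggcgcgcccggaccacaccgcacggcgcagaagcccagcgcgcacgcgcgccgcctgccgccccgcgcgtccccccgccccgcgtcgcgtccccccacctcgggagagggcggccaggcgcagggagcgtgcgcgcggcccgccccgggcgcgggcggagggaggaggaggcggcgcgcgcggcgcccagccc
Matched to hg19, the window of DUSP2 ends where the counted gene begins, that of DUSP8 ends 351 bases before it, and those of DUSP1 and DUSP14 reach 5 and 46 bases into it.

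DUSP1 held 1 CRE, 125 to 118 bases before the start, and 1 E-box, 108 to 103 bases before it. DUSP8 held 2 CREs, at 118 to 111 and 74 to 67 bases before the start. A CRE was present in 1.65% of all 35116 RefSeq windows of this length. DUSP2 held 1 E-box, found in 6.34% of windows, and DUSP14 held neither. DUSP6, DUSP7, DUSP10 and DUSP16, searched in the same way, also held neither. The motifs did not overlap one another. None of the 8 genes had an AP-1 site (TGANTCA, 6.57% of windows), an ETS site (CCGGAAG, 8.52%) or a CArG box (1.16%), searched on both strands. A match says that these letters are in the window, not that a factor binds there.

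Other genes of the pathway were counted from 4 lists. The first held 19 ERK feedback and output genes outside the DUSPs, of which 18 were tested, among them Sprouty and SPRED inhibitors, ETS factors and immediate-early genes. In senescence 11 of the 18 were called higher, where 13.3% of all genes were, and 0 lower, where 13.3% were (1 lower at an unadjusted p under 0.05 in edgeR, 0 in DESeq2), with a median log2 fold change of 0.78. With library size alone this median was 0.28, with 5 higher and 2 lower. Under that scaling the median of all genes was -0.53, with 5.85% of them higher and 39% lower. SPRY2, an inhibitor of receptor signaling to RAS, had the smallest adjusted p, from 37 and 34 raw counts in the control libraries to 163 and 159 in the shControl libraries (log2 fold change 2.56, SE 0.21, adjusted p = 3.3e-10). METTL3 knockdown raised 4 (SPRY4, SPRED2, ETV1 and EPHA4) and lowered 3 (CCND1, PHLDA1 and IER3), where 12.2% of all genes were higher and 11.2% lower. METTL14 knockdown raised 8, where DESeq2 called 4, and lowered 3 (CCND1, ETV1 and SPRED1), where 9.15% of all genes were higher and 12% lower, with a median of 0.46. With library size alone these counts were 7 higher and 1 lower after METTL3 knockdown and 11 higher and 1 lower after METTL14 knockdown. Under that scaling 41.1% and 24.6% of all genes were higher and 2.75% and 5.53% lower. SPRY2 had 189 and 146 raw counts with shMETTL3 (log2 fold change -0.16, SE 0.17, adjusted p = 0.56) and 292 and 236 with shMETTL14 (0.55, SE 0.16, adjusted p = 0.017).

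Of 15 ERK cascade components, all tested, 4 were higher (HRAS, RASA1, NF1 and MAP2K1) and 2 lower (NRAS and KSR1) in senescence, where 13.3% of all genes were called in each direction. METTL3 knockdown raised 3 (BRAF, NF1 and NRAS) and lowered 4 (GRB2, HRAS, MAP2K2 and MAPK3), where DESeq2 called 3 higher and 1 lower, while METTL14 knockdown raised MAP2K1 and lowered RASA1. The shares of all genes were 12.2% higher and 11.2% lower after METTL3 knockdown and 9.15% and 12% after METTL14 knockdown, so that the single genes called after METTL14 knockdown are near the background. Reads from the H-RAS part of the ER:RAS construct and from HRAS itself cannot be told apart here. With library size alone, these components were 1 higher and 8 lower in senescence, 9 higher and 0 lower after METTL3 knockdown, and 6 higher and 1 lower after METTL14 knockdown. Under that scaling 5.85% of all genes were higher and 39% lower in senescence, 41.1% and 2.75% after METTL3 knockdown, and 24.6% and 5.53% after METTL14 knockdown. RASA1, a RAS GTPase-activating protein, rose in senescence (473 and 566 to 821 and 702 raw counts, log2 fold change 0.94, SE 0.15, adjusted p = 3e-05). The scaffold KSR1 fell (198 and 148 to 43 and 89 raw counts, log2 fold change -1.01, SE 0.23, adjusted p = 0.0014). Among 11 JNK and p38 kinases and their activators, 10 were tested, and 1 was higher and 2 (MAPK10 and MAP2K6) lower in senescence, where 13.3% of all genes were called in each direction. With library size alone these were 0 higher and 6 lower, and those higher were 5 with shMETTL3 and 4 with shMETTL14 against shControl. The smallest adjusted p in each direction belonged to the p38 kinase MAPK13 (24 and 29 to 50 and 37 raw counts, log2 fold change 1.10, SE 0.29, adjusted p = 0.0049) and the JNK kinase MAPK10 (146 and 184 to 48 and 59 raw counts, log2 fold change -1.24, SE 0.21, adjusted p = 5.6e-05). METTL3 knockdown raised 3 (MAPK8, MAPK10 and MAP2K4) and METTL14 knockdown raised MAP2K3, 1 of 10 and near the 9.15% of all genes. Each lowered 0 in edgeR and in DESeq2, with 1 lower at an unadjusted p under 0.05. The called genes of these lists other than SPRY2, RASA1, KSR1, MAPK13 and MAPK10 were named after their values were seen.

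Of 16 other dual-specificity phosphatases, 7 were tested, and 0 were called in either direction in senescence by edgeR or DESeq2 (2 higher and 0 lower at an unadjusted p under 0.05), where 13.3% of all genes were called in each direction. Of these 7, 1 was lower after METTL3 knockdown, where 11.2% of all genes were, and 1 higher after METTL14 knockdown, where 9.15% were, so these counts are near the background. Both calls were of DUSP3, named after its values were seen, which acts on ERK and JNK in the nucleus. The control libraries held 141 and 139 raw counts of DUSP3, the shControl libraries 145 and 139, the shMETTL3 libraries 77 and 86 and the shMETTL14 libraries 234 and 197. It was lower after METTL3 knockdown (log2 fold change -1.02, SE 0.17, adjusted p = 8.8e-05) and higher after METTL14 knockdown (0.44, SE 0.16, adjusted p = 0.045), though DESeq2 did not call the second. DUSP9, the cytoplasmic relative of DUSP6 and DUSP7, had 0 counts in all 8 libraries, which allows up to 3 counts in each.

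**Figure D3:**
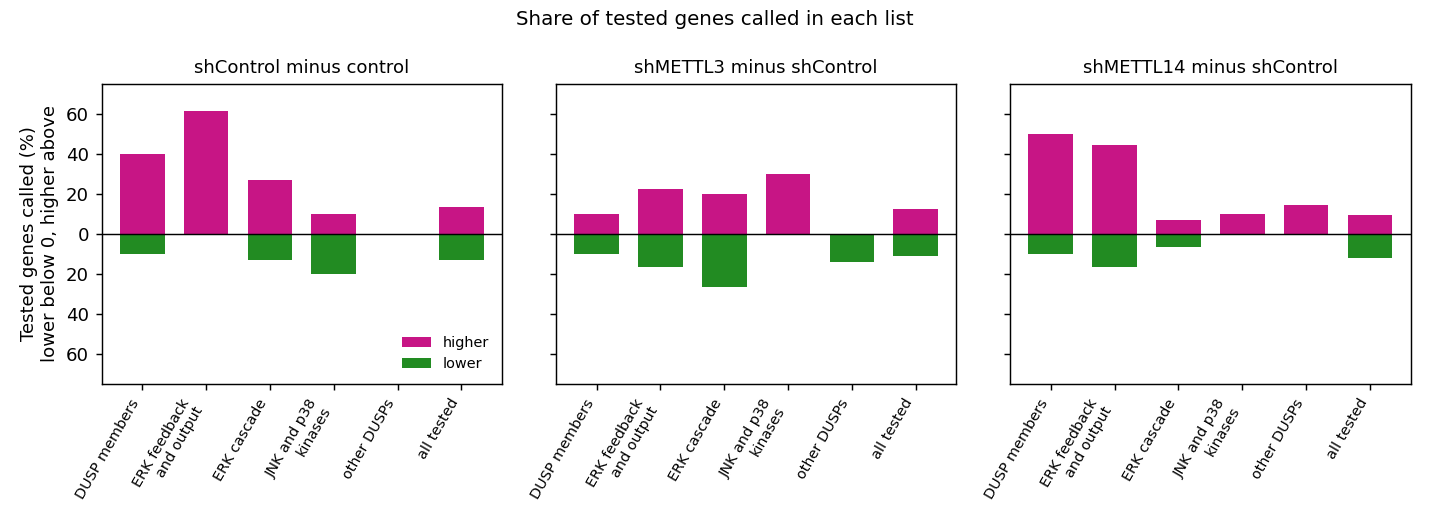
Percent of tested genes called higher (above 0) and lower (below 0) in each list and among all 12844 genes tested, for senescent shControl minus control cells and each knockdown minus shControl. In senescence 4 of 10 DUSP genes, among them DUSP4, which passed the filter through the senescent groups alone, and 11 of 18 ERK feedback and output genes were higher, against 13.3% of all genes. The DUSP bar after METTL14 knockdown includes DUSP2 and DUSP8, which passed the filter through shMETTL14 alone.

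The genes whose counts ran most like those of DUSP6 and DUSP1 were found among the 3883 tested genes that averaged 100 counts or more per library. Likeness is Pearson's r of log2 CPM over the 8 libraries, which share their groups, and is a description only. The 3 genes most like DUSP6 were SLC20A1 (r = 0.997), ARSG (r = 0.996) and BMP2 (r = 0.993), which encode a phosphate transporter, an arylsulfatase and a bone morphogenetic protein. Raw counts of SLC20A1 were 306 and 332 in the control libraries, 2067 and 1939 in the shControl libraries, 1409 and 1637 in the shMETTL3 libraries and 875 and 956 in the shMETTL14 libraries. The 3 most like DUSP1 were CDKN1A (r = 0.996), TXNIP (r = 0.987) and STARD7 (r = 0.986), which encode the cell cycle inhibitor p21, a thioredoxin-interacting protein and a lipid transfer protein. Raw counts of CDKN1A were 459 and 426 in the control libraries, 726 and 744 in the shControl libraries, 762 and 642 in the shMETTL3 libraries and 1817 and 1498 in the shMETTL14 libraries, so that it too was highest in the shMETTL14 libraries. The study reports p21 on its western blot as unaffected by either knockdown, whereas these counts are of nascent RNA, not protein.

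**Figure D4:**
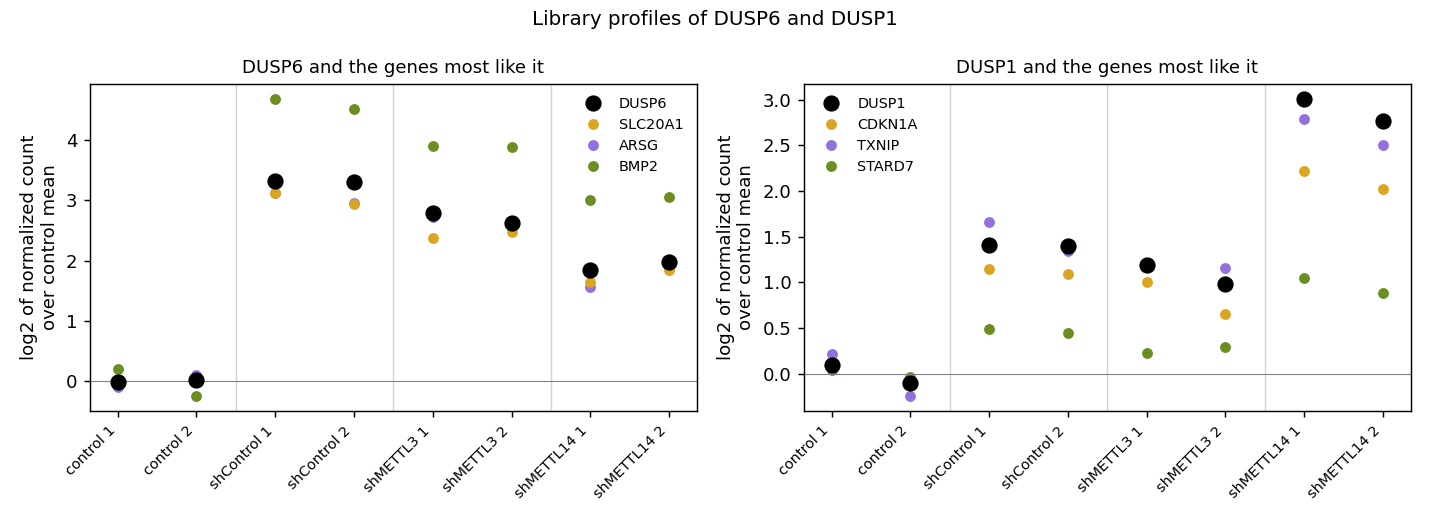
Normalized count of each library over the mean of the control libraries (y axis, log2) for DUSP6 (left) and DUSP1 (right), in black, and the 3 genes most like each. The DUSP6 profile peaked with shControl and fell from shMETTL3 to shMETTL14, while that of DUSP1 peaked with shMETTL14.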

How the data were processed

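fastGRO-seq was done on isolated nuclei with Drosophila nuclei as a spike-in, and libraries were made with a directional kit. The reads were aligned to hg19 (STAR is named in the submitters' processing notes), and the authors counted them over whole genes with HOMER. The deposited values are raw counts for 27945 genes in 8 libraries, not normalized, with replicates kept apart. Without the spike-in, which was left out of these counts, every fold change is relative to the bulk of genes in the same library.

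Counts were tested with edgeR 4.0.16 (R 4.3.3) by the quasi-likelihood test, with TMM, filterByExpr at a minimum count of 10, 1 fit of 4 groups and Benjamini-Hochberg adjustment over 12844 genes. The biological coefficient of variation was 10.6%. The study itself used DESeq2 for such comparisons; DESeq2 1.42.0 was an alternative here. The other alternatives were library size alone or without ribosomal RNA rows, no filter, at least 10 counts in every library, a fit per comparison, the replicate number as a block, an adjusted p below 0.01, and each library left out. The code was tested on simulated data. An exact permutation test of 2 against 2 libraries cannot go below p = 0.333 and was not used. Plots were drawn with matplotlib 3.10.9.

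The DUSP genes, the lists and the rule for named genes were chosen with earlier results of these data known. The rule names all 10 DUSP genes, DUSP9, METTL3, METTL14, the member of each list with the smallest adjusted p in each direction in senescence, and the 3 genes most like DUSP6 and DUSP1.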

Additional observations from a re-analysis of the deposited data

Results flagged for a closer look

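The effects of the knockdowns differed between METTL14 and METTL3 for 5 of the 8 DUSP genes that did not pass the low-count filter through shMETTL14 alone, where 35.2% of all genes differed, by a test of the difference itself (shMETTL14 minus shMETTL3, edgeR's quasi-likelihood test). DUSP1 (log2 fold change 1.81, adjusted p = 8.4e-10), DUSP5 (0.93, adjusted p = 9.5e-06) and DUSP14 (0.75, adjusted p = 0.0091) were higher with shMETTL14. DUSP2 (4.21, adjusted p = 0.00024) and DUSP8 (3.18, adjusted p = 0.00061) were also higher, each from at most 2 counts in the shMETTL3 libraries, but both were tested only because they are high with shMETTL14, so these values are a description. That of DUSP2 was 7.37 without shMETTL3 replicate 1, which leaves that group at 0 counts, and 3.26 without shMETTL3 replicate 2. As counting ratios these were 20.8 for DUSP2 (95% exact counting interval 5.39 to 178) and 9.62 for DUSP8 (interval 3.46 to 37.2). DUSP6 (-0.79, adjusted p = 7.2e-05) and DUSP10 (-1.63, adjusted p = 2.6e-08) were lower with shMETTL14. For each of these 7 genes, the normalized counts of the shMETTL14 and shMETTL3 libraries did not overlap. The call of DUSP8 was lost without shMETTL14 replicate 1 (adjusted p = 0.058), and that of DUSP14 without shMETTL14 replicate 1 (adjusted p = 0.2) or shMETTL3 replicate 2 (adjusted p = 0.09), with DESeq2 (adjusted p = 0.0805) and with library size alone (adjusted p = 0.102).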

How the results depend on the processing

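Of 35 called values of DUSP genes over the 6 comparisons, 27 kept direction and call under every alternative that gave a value, and 1 reversed. That one was DUSP6 after METTL3 knockdown, 0.0041 with library size alone. With library size alone the DUSP genes called lower in senescence were 3 in place of 1, and after METTL3 knockdown 4 were higher and 0 lower in place of 1 and 1, but under that scaling 39% of all genes were lower in senescence and 41.1% higher after METTL3 knockdown, so these shares are near the background. The uncalled values that changed sign with library size alone were DUSP16 in senescence (-0.0072), DUSP1 (0.30), DUSP5 (0.39) and DUSP7 (0.27) after METTL3 knockdown, DUSP7 (0.30) and DUSP10 (0.087) after METTL14 knockdown, and DUSP16 between the knockdowns (-0.12). With library size without ribosomal RNA rows, DUSP7 after METTL14 knockdown was 0.049. Under that scaling 1 gene in place of 0 was lower with shMETTL3 than in control cells, where 28.6% of all genes were lower. The cause of these shifts was not tested beyond the scaling itself. DESeq2 called 3 in place of 5 genes higher after METTL14 knockdown, where it called 4.42% of all genes higher and edgeR 9.15%. DESeq2 gave no adjusted p for DUSP2 and DUSP8. Requiring at least 10 counts in every library left 7 DUSP genes tested. Of these 3 were higher after METTL14 knockdown, 5 with shMETTL14 against control cells and 3 between the knockdowns (in place of 5, 8 and 5). Under that filter 10.5%, 20.2% and 19.7% of all genes were higher in these comparisons. Across the alternatives that left out a library, the genes higher after METTL14 knockdown ranged from 3 to 5 and those higher between the knockdowns from 3 to 5, the lowest without shMETTL14 replicate 1 in both. Log2 fold changes that changed sign there, none of them called, ranged for DUSP7 from -0.50 to 0.21 in senescence, -0.79 to 0.0035 after METTL3 knockdown, -0.26 to 0.20 after METTL14 knockdown, -0.55 to 0.16 with shMETTL14 against control cells and -0.054 to 0.74 between the knockdowns. After METTL3 knockdown they ranged from -0.12 to 0.48 for DUSP4, -0.17 to 0.67 for DUSP8 (a fitted value between groups that are both at or under 3 counts per library, and no estimate of a fold) and -0.14 to 0.40 for DUSP16, which also ranged from -0.065 to 0.47 between the knockdowns.

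The labels give every group replicates 1 and 2 but name no shared batch. Deviations of same-numbered libraries correlated at -0.06 to 0.30 over 3883 genes, the most between control and shMETTL3. Whether same-numbered libraries share a batch was not tested. With a replicate block, the rise of DUSP8 with shMETTL14 over control cells was 1.31 (adjusted p = 0.059), and no other DUSP call changed. With 671 to 1885 counts per library on the 10 genes, DUSP2, DUSP7 and DUSP8 rest on at most 34 counts in any library, which limits what could be detected.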
